A study of Mus musculus with 2 samples.

Results

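The 10 cardiac calcium handling genes described here are Ryr2, Atp2a2, Slc8a1, Cacna1c, Pln, Casq2, Trdn, Asph, Camk2d and Hrc. They were chosen by symbol from the 32589 genes of the count matrices, and all 10 were found in both libraries. The study profiled single nuclei from hearts of male C57BL/6 mice that were 8 weeks old when assigned to the groups. The PD-1 inhibitor group received an anti-mouse PD-1 antibody at 5 mg/kg by intraperitoneal injection on days 1 and 14 of a cycle of 28 days, and the Control group received PBS at the same times. PD-1 is an inhibitory receptor of T cells, and the antibody blocks it throughout the animal rather than in a chosen cell type. Each group is represented by 1 library, and the number of hearts behind a library was not given in the sources used here, so treatment, animal and library preparation cannot be told apart and no value below carries a test.

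In a heart muscle cell, each action potential lets calcium in through the L-type channel, and this small entry opens ryanodine receptors that release the much larger store of the sarcoplasmic reticulum. Calcium is then pumped back into the store by SERCA and carried out of the cell by the sodium-calcium exchanger, and the muscle relaxes. Inside the store, calsequestrin and the histidine-rich calcium-binding protein hold calcium, and triadin and junctin tie calsequestrin to the release channel. The members cover the surface channel (Cacna1c), the release channel (Ryr2), the pump (Atp2a2) and its inhibitor phospholamban (Pln), the exchanger (Slc8a1), the store proteins (Casq2, Hrc), the junction proteins (Trdn and Asph, which also encodes an aspartate hydroxylase) and a calmodulin-dependent kinase that phosphorylates several of the others (Camk2d).

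The files held 10197 barcodes and 13177525 UMIs (unique molecular identifiers, 1 per captured RNA molecule) for Control, and 7967 barcodes and 10875248 UMIs for PD-1 inhibitor. After removal of called doublets and of nuclei with over 20% mitochondrial UMIs, 9522 and 7644 nuclei remained, and 48 barcode sequences occurred in both libraries. Cardiomyocyte-like clusters, named from 20 sarcomere and energy genes, held 1276 nuclei in Control (13.4%) and 1081 in PD-1 inhibitor (14.1%). Their summed cardiomyocyte markers reached 71615 and 79307 CPM, against 2123 to 6769 CPM in the other named cell types. Here CPM stands for UMIs per 1000000 UMIs of genes other than the mitochondrial mt- genes, and levels are given in this unit unless stated otherwise. Ratios are given as log2 with an exact 95% interval, and all intervals cover counting error only.

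Calcium handling genes were concentrated in cardiomyocytes. Together the 10 members made up 2.87% of the cardiomyocyte UMIs in Control and 2.44% in PD-1 inhibitor, compared with 0.572% and 0.537% in smooth muscle, 0.380% and 0.360% in pericytes, and 0.144% to 0.263% in every other named type. With every nucleus thinned to 500 UMIs, the median cardiomyocyte nucleus still showed 5 of the 10 members in Control and 4 in PD-1 inhibitor, whereas the medians of the other types lay between 0 and 2. In 9 of the 10 members the cardiomyocyte level was the highest of the 11 named types in both libraries. Camk2d was the exception.

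**Figure D1:**
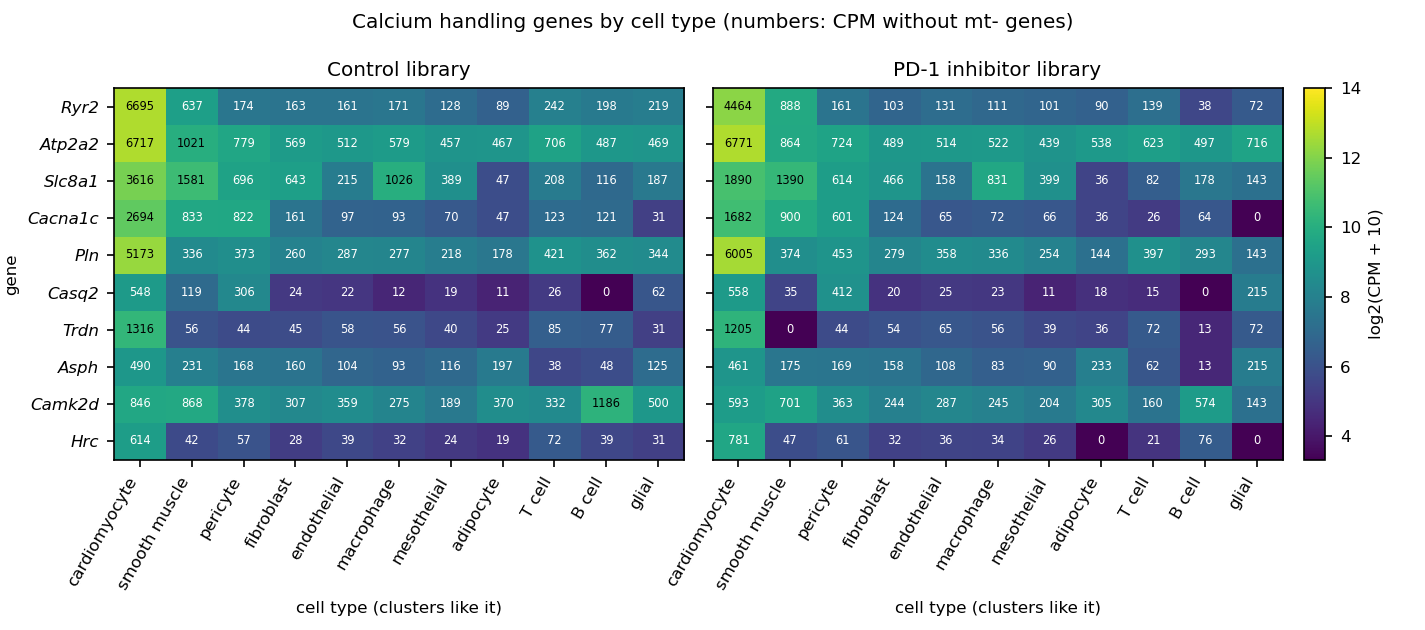
Level of each calcium handling gene (rows) in each named cell type (columns) in the Control library (left) and the PD-1 inhibitor library (right), with CPM printed in the cells and colours on a log2 scale after adding 10. The cardiomyocyte column is the highest of its row for every gene except Camk2d, which reached 1186 CPM in Control B cells.

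The release machinery lay mostly in cardiomyocytes. Ryr2, the ryanodine receptor of the heart (chr13:11553102-12106945, minus strand, build GRCm38), reached 6695 CPM (6590 to 6800) in Control and 4464 CPM (4370 to 4560) in PD-1 inhibitor cardiomyocytes, which held 90.7% and 89.4% of all its UMIs. It was next highest in smooth muscle, at 637 and 888 CPM, and this step was beyond counting error in both libraries. Among the types below smooth muscle, the intervals of neighbours overlapped throughout. In Control, 91.7% of cardiomyocyte nuclei had a Ryr2 UMI at a median depth of 1408 UMIs, and 13.3% of T cell nuclei did at a median of 848.5. After thinning to 500 UMIs these shares were 79.5% and 8.33%. Thinning only makes depth equal, so whether the share in T cells was background was not tested by it. Triadin (Trdn, chr10:33080554-33476709, plus strand), which anchors calsequestrin to the release channel, had the steepest step of all members between cardiomyocytes and the next type, 15.5-fold in Control and 16.7-fold in PD-1 inhibitor. Its levels in cardiomyocytes were 1316 CPM and 1205 CPM. In PD-1 inhibitor smooth muscle no Trdn UMI was counted, which allows a level of up to 35.0 CPM.

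The pump and its inhibitor were both abundant. Atp2a2, which encodes the SERCA pump (chr5:122453513-122502225, minus strand), stood at 6717 CPM (6612 to 6823) in Control and 6771 CPM (6655 to 6888) in PD-1 inhibitor cardiomyocytes. It was counted in every type, between 439 and 779 CPM outside cardiomyocytes and smooth muscle. Phospholamban (Pln, chr10:53337667-53345987, plus strand), the small protein that restrains the pump, reached 5173 CPM (5082 to 5267) and 6005 CPM (5896 to 6116). Scaled by the length of their merged exons, Pln had the highest level of the members (1875 and 2177 CPM per kb of exon), followed by Atp2a2 (1105 and 1113), while Asph had 30.4 and 28.6 and Camk2d 37.6 and 26.4. Per kb of the whole gene, introns included, Pln again led with 622 and 722 CPM per kb. The antisense gene Cep85l overlaps exons of Pln, and it was counted at 123 and 109 CPM in cardiomyocytes; whether counting used the strand was not given in the sources used here.

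The surface channel and the exchanger were shared with other contractile or stromal cells. Cacna1c, the pore of the L-type channel (chr6:118587240-119196418, minus strand), stood at 2694 CPM and 1682 CPM in cardiomyocytes, followed by smooth muscle at 833 and 900 CPM and by pericytes at 822 and 601 CPM. In Control the smooth muscle and pericyte intervals overlapped, and in PD-1 inhibitor they did not. Slc8a1, the sodium-calcium exchanger (chr17:81373105-81738377, minus strand), stood at 3616 CPM and 1890 CPM in cardiomyocytes, 1581 and 1390 CPM in smooth muscle, and 1026 and 831 CPM in macrophages. Cardiomyocytes therefore held only 63.1% of its UMIs in Control and 52.9% in PD-1 inhibitor, and their lead over smooth muscle was 2.29-fold and 1.36-fold.

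Of the store proteins, Hrc (chr7:45335290-45338974, plus strand) had 81.2% and 84.3% of its UMIs in cardiomyocytes, and Casq2 77.7% and 76.5%. Hrc, a calcium-binding protein of the store, stood at 614 CPM and 781 CPM in cardiomyocytes and at no more than 76.5 CPM in any other type. Casq2, cardiac calsequestrin (chr3:102086415-102146514, plus strand), stood at 548 CPM and 558 CPM in cardiomyocytes and at 306 CPM (262 to 357) and 412 CPM (351 to 481) in pericytes. The pericyte level was thus second in both libraries, 1.79-fold and 1.35-fold below that of cardiomyocytes.

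Camk2d and Asph were the most widely spread. Camk2d (chr3:126596302-126846326, plus strand), the main cardiac isoform gene of the calmodulin-dependent kinase, had only 37.4% and 34.4% of its UMIs in cardiomyocytes. In Control it was highest in B cells at 1186 CPM (1042 to 1344), followed by smooth muscle at 868 CPM and cardiomyocytes at 846 CPM, and the last pair had overlapping intervals. In PD-1 inhibitor the order was smooth muscle at 701 CPM, cardiomyocytes at 593 CPM and B cells at 574 CPM, with overlapping intervals between neighbours. Asph (chr4:9448069-9669344, minus strand) had 48.5% and 47.3% of its UMIs in cardiomyocytes, at 490 and 461 CPM. Because 1 gene gives rise to the hydroxylase and to junctin, a UMI count per gene cannot tell these products apart.

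Free RNA from broken cardiomyocytes reaches every droplet, so the UMIs outside cardiomyocytes were set against the number expected if each member accompanied the cardiomyocyte markers in the same ratio as in cardiomyocytes. More than 3 times that number in both libraries was taken as beyond carry-over. With all cardiomyocyte nuclei as the reference, Ryr2, Atp2a2, Pln, Trdn and Hrc passed this mark in 0 of the 10 other types. Ryr2 in smooth muscle came to 1.68 and 2.66 times the expected number, and Atp2a2 in smooth muscle to 2.68 and 1.71 times, so low expression there was neither shown nor absent by this measure. Casq2 passed in pericytes (7.12 and 8.65 times) and in no other type in both libraries. Cacna1c passed in smooth muscle (5.45 and 7.15 times) and pericytes (3.88 and 4.19 times). Slc8a1 passed in smooth muscle (7.72 and 9.83 times), macrophages (4.50 and 7.41 times) and fibroblasts (3.29 and 4.98 times). The macrophage type joins cluster 1 (1112 and 803 nuclei) with the smaller cluster 13 (146 and 81 nuclei), whose leading genes include the dendritic cell genes Cd209a, Clec9a and Flt3 and the cycling gene Mki67. Slc8a1 stood at 1068 and 882 CPM in cluster 1 and at 774 and 506 CPM in cluster 13. Asph passed in 8 types, with the highest ratio in adipocytes (13.6 and 18.3 times), and Camk2d in all 10, from B cells (21.0 and 17.4 times) to T cells. Several of these calls rest on few UMIs. In PD-1 inhibitor glia, with 10 nuclei, 2 Camk2d UMIs and 3 Asph UMIs were counted, the latter in 1 nucleus. Control glia had 4 Asph UMIs in 30 nuclei, and PD-1 inhibitor adipocytes had 13 in 16 nuclei.

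**Figure D2:**
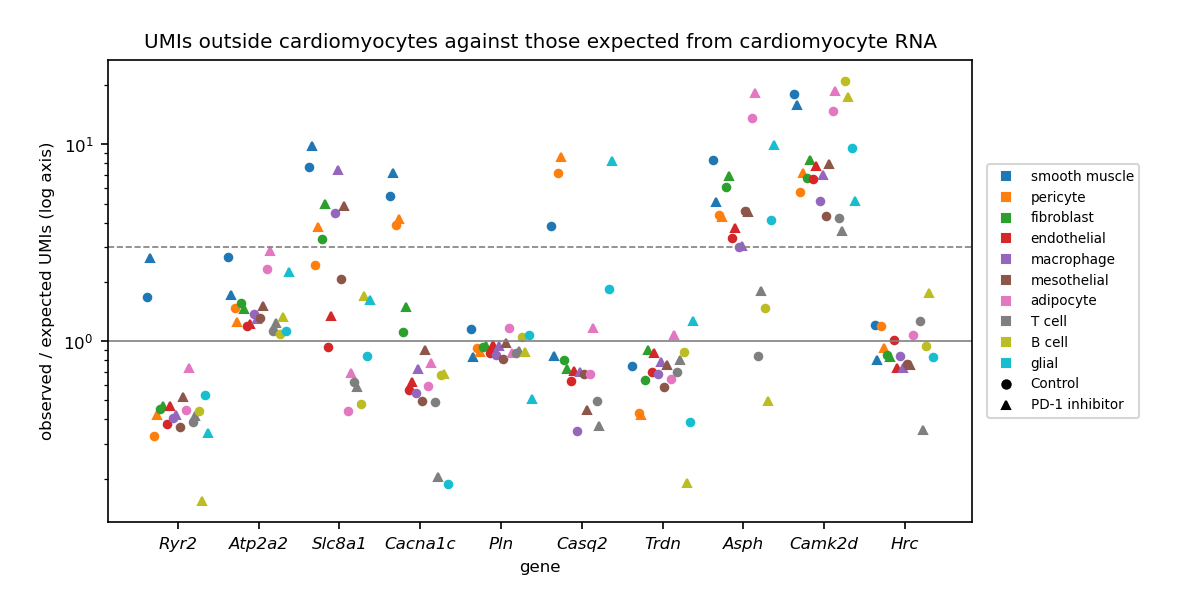
UMIs observed outside cardiomyocytes divided by those expected from cardiomyocyte RNA (log axis), for each calcium handling gene and each of the 10 other named cell types (colours), with circles for Control and triangles for PD-1 inhibitor. The solid line marks 1 and the dashed line 3, and values of 0 are not drawn; Pln, Trdn and Hrc lie at 1.76 or lower, whereas Camk2d lies above 3 in every type.

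The expected number depends on which cardiomyocyte nuclei serve as the reference, because members differ strongly between nuclei poor and rich in mitochondrial RNA, as described further on. With nuclei under 2% mitochondrial UMIs as the reference, Cacna1c in pericytes was at 2.32 and 2.09 times, Slc8a1 in fibroblasts at 2.03 and 2.55 times and Slc8a1 in macrophages at 2.77 and 3.79 times. Asph then passed in 3 types (smooth muscle, fibroblasts and adipocytes) and Camk2d in 7, with T cells, mesothelial cells and glia no longer above 3 in both libraries. These calls therefore depend on the reference. Casq2 in pericytes (6.57 and 7.16 times with nuclei under 2%) and Cacna1c and Slc8a1 in smooth muscle stayed above 3 with every one of these references.

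Promoter sequences from RefSeq (GRCm38.p6, 250 bases before the annotated start) were on hand for 7 of the 10 members, as 9 promoters. They were searched for 5 motifs of muscle or core promoters, on both strands except for TATA, which was searched on the gene's strand only. These were the MEF2 and CArG motifs by name, the M-CAT motif CATTCC, the GATA motif AGATAA and the TATA motif TATAAA; MEF2 and TATA matches may share bases. Among 32851 promoters, 2.92% held a MEF2 match, 1.47% a CArG match, 12.6% M-CAT, 9.99% GATA and 7.59% TATA. The 3 promoters with a match are shown 5′ to 3′ on the gene's strand, with the matches in capitals. Casq2, the store protein shared with pericytes, held the MEF2 match 69 bases before its start. Slc8a1, the exchanger shared with smooth muscle and macrophages, held a GATA match 68 bases before its start. Pln held a GATA match on the other strand 183 bases and a TATA match 219 bases before its start. All distances are counted to the start in RefSeq. The printed Pln sequence lacks the last 19 bases before that start, because it is cut where the gene begins in GENCODE.
Casq2 (chr3:102086165-102086414, plus strand): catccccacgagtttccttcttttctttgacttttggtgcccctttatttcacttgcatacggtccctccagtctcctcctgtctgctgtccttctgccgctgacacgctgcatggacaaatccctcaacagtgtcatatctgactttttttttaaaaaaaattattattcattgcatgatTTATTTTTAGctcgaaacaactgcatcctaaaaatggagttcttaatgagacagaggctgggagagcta
Slc8a1 (chr17:81738388-81738637, minus strand): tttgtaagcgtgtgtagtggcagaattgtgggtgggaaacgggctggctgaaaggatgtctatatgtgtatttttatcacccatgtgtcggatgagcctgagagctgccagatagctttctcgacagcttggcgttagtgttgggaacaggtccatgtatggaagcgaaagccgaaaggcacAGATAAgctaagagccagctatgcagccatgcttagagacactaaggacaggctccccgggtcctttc
Pln (chr10:53337436-53337666, plus strand): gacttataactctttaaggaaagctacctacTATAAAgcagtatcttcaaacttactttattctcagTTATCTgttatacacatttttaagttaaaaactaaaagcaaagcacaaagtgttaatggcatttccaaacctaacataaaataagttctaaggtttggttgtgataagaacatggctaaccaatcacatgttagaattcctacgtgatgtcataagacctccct

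A match only says that these letters stand in the window. No expression value was related to them.

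For each member, the genes whose levels were most alike over 22 points (11 cell types in each of 2 libraries) were sought among 11473 genes by Pearson correlation of log2 CPM after adding 10. Points of 1 library share its free RNA, so these values are a description only. Ryr2 was most like Gja3 (r = 0.945) and Fbxo40 (0.944). Atp2a2 was most like Mov10l1 (0.947) and the troponin gene Tnnt2 (0.944). Pln was most like Fhl2 (0.977) and the cardiac actin gene Actc1 (0.973), and Hrc was most like the actinin gene Actn2 (0.962) and Eno3 (0.958). Cacna1c stood next to Jph2 (0.940), which holds the surface membrane to the store, and Pygm (0.895). Trdn stood next to Itgb1bp2 (0.923) and Slc38a3 (0.918). Casq2 was nearest to Pacsin3 (0.882) and Malat1 (0.844), and Slc8a1 to Ttc12 (0.855) and Wfs1 (0.828). Asph was nearest to Ppp2r3a (0.848) and Sdhc (0.828), and Camk2d to Agtpbp1 (0.793) and Whrn (0.777).

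Cardiomyocyte nuclei fell into a mitochondria-poor and a mitochondria-rich class, and the calcium handling genes differed sharply between them. In Control, 719 cardiomyocyte nuclei (56.3%, 53.6 to 59.1%) had under 2% mt- UMIs, 83 had 2 to 5% and 474 (37.1%, 34.5 to 39.9%) had 5 to 20%. In PD-1 inhibitor the same classes held 504 (46.6%, 43.6 to 49.6%), 99 and 478 nuclei (44.2%, 41.2 to 47.2%). The poor class lay mostly in cluster 5 (698 and 489 nuclei) and the rich class mostly in cluster 7 (439 and 453 nuclei) in both libraries. Hrc is among the genes that lead cluster 7. Malat1, an RNA retained in the nucleus, stood at 120113 and 130216 CPM in the poor class and at 12693 and 10952 CPM in the rich class, and the cardiomyocyte markers stood at 59635 and 65603 CPM in the poor and 99093 and 98174 CPM in the rich class. Median depth was 1644 and 1583 UMIs in the poor class and 1189 and 1311 in the rich class. The part of retained cytoplasm, nuclear RNA content or cell state in the differences below was not tested.

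RNA of the pump and of the store protein Hrc was higher in mitochondria-rich nuclei, and that of the channels and the exchanger was lower. Of the 10 members, Atp2a2 and Hrc were at least 1.5-fold higher and Ryr2, Slc8a1, Cacna1c, Asph and Camk2d at least 1.5-fold lower in the rich class in each library. All 10 members passed the minimum of 50 UMIs. Among all genes with at least 50 UMIs, 30.4% were that much higher and 39.0% that much lower in Control, and 31.3% and 39.1% in PD-1 inhibitor, so passing this fold was common in both directions. The median log2 ratio of the members was -0.40 in Control and -0.56 in PD-1 inhibitor, beside -0.20 and -0.18 over all genes tested.

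Hrc had the highest ratio. Its level was 279 CPM in the poor and 1416 CPM in the rich class of Control, a log2 ratio of 2.34 (2.18 to 2.51), and 384 and 1311 CPM in PD-1 inhibitor, a log2 ratio of 1.77 (1.60 to 1.94). Atp2a2 went from 5440 to 9728 CPM in Control, a log2 ratio of 0.84 (0.79 to 0.89), and from 5322 to 8720 CPM in PD-1 inhibitor, a log2 ratio of 0.71 (0.66 to 0.76). Its partner Pln had a smaller ratio, 0.46 (0.40 to 0.51) in Control and 0.16 (0.10 to 0.21) in PD-1 inhibitor. Pln thus stayed below the 1.5-fold mark in both libraries (1.37-fold and 1.11-fold), whereas Atp2a2 passed it in both.

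Cacna1c had the lowest ratio. It stood at 3761 CPM in the poor and 370 CPM in the rich class of Control, a log2 ratio of -3.34 (-3.54 to -3.16), and at 2793 and 297 CPM in PD-1 inhibitor, a log2 ratio of -3.23 (-3.43 to -3.04). Slc8a1 followed with 4886 against 736 CPM in Control, a log2 ratio of -2.73, and 3054 against 478 CPM in PD-1 inhibitor, a log2 ratio of -2.67. Camk2d had log2 ratios of -2.18 and -2.50, Ryr2 of -1.78 and -1.74, and Asph of -0.93 and -1.11. The channel that admits calcium, the channel that releases it and the exchanger that expels it were thus all lower in the mitochondria-rich class of both libraries.

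Trdn and Casq2 differed little between the classes. Trdn stood at 1287 CPM in the poor and 1411 CPM in the rich class of Control, a log2 ratio of 0.13 (0.02 to 0.25), and its PD-1 inhibitor ratio of 0.11 (-0.01 to 0.23) included 0. Casq2 had 0.41 (0.24 to 0.58) in Control and -0.01 (-0.19 to 0.18) in PD-1 inhibitor. The noncoding gene D830005E20Rik, which lies antisense within Trdn without sharing exons, differed from its host. It stood at 2245 and 1949 CPM in the poor class and at 227 and 146 CPM in the rich class, and reads of the pair within introns cannot be assigned without the strand.

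**Figure D3:**
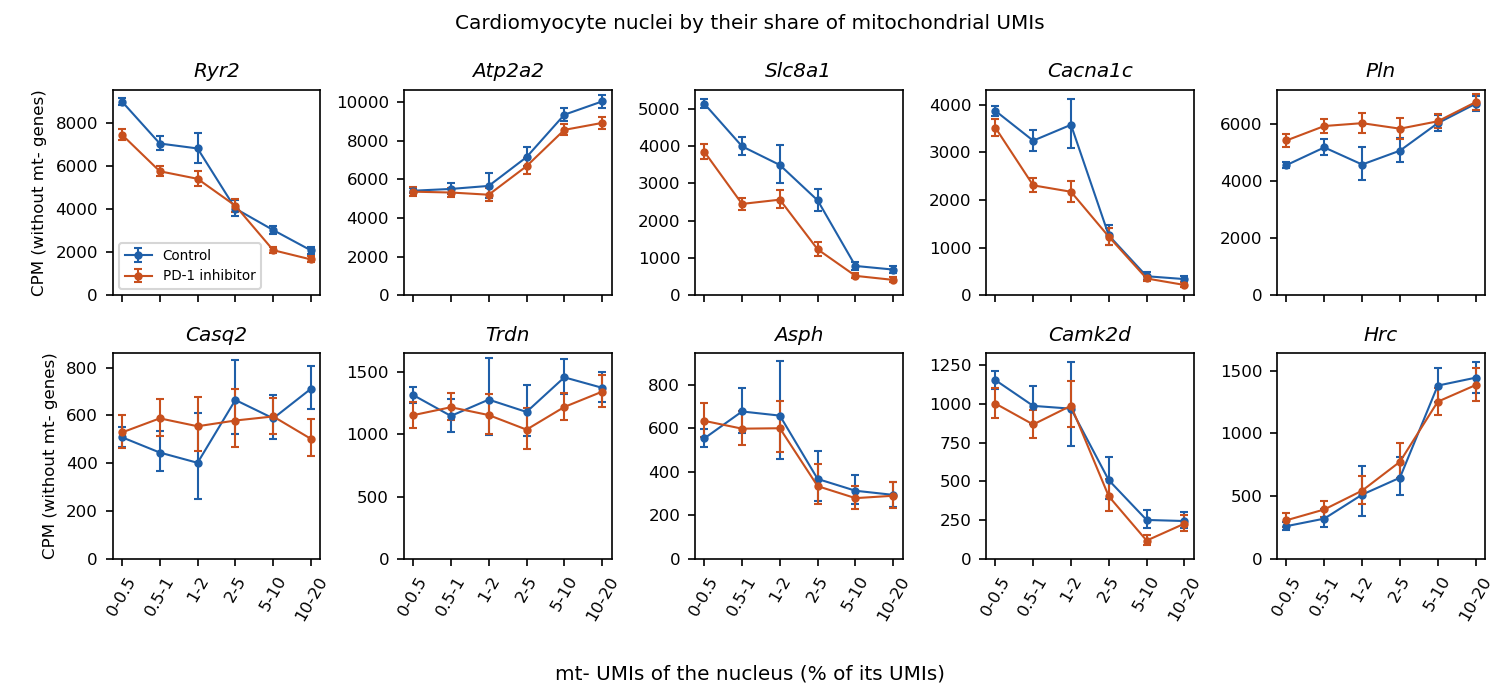
Level of each calcium handling gene in cardiomyocyte nuclei binned by their share of mitochondrial UMIs (6 bins from 0 to 20%), in CPM with exact 95% Poisson intervals, for Control (blue) and PD-1 inhibitor (orange). Cacna1c in Control went from 3874 in the first bin to 344 in the last, and Hrc from 261 to 1444.

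Finer bins of the mitochondrial share showed where the levels changed. In Control, Ryr2 stood at 9016 CPM in nuclei under 0.5% mt- UMIs, 6834 CPM at 1 to 2%, 4040 CPM at 2 to 5% and 2095 CPM at 10 to 20%. Cacna1c stood at 3874, 3581, 1259 and 344 CPM in the same bins, so most of its difference lay above 2%. Hrc stood at 261, 512, 647 and 1444 CPM. Nuclei of the middle class thus held levels between those of the poor and the rich class for these 3 genes, and that class was small, with 83 nuclei in Control.

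The difference between the classes followed gene length among the members. Over the 10 members, Spearman's rho between gene span and log2 ratio was -0.85 in Control and -0.81 in PD-1 inhibitor, and over all genes tested it was -0.42 in each; genes are not independent replicates, and all values of a library come from the same nuclei. In Control, the median log2 ratio over all genes was 1.09 in the shortest of 5 equal groups of span (up to 11.8 kb) and -0.87 in the longest (from 95.7 kb). Cacna1c (609.179 kb), Slc8a1 (365.273 kb), Camk2d (250.025 kb) and Ryr2 (553.844 kb) lay below genes of like span, whose medians in Control were -1.42, -1.05, -0.99 and -1.39. Asph (221.276 kb) lay close to its median of -0.96. Trdn was the long gene that did not follow the others: at 396.156 kb it had 0.13 and 0.11, where genes of like span had medians of -1.10 and -1.27. Atp2a2 (48.713 kb) also lay above genes of like span, whose medians were -0.41 and -0.42, as did Casq2 (60.1 kb), with 0.41 and -0.01 where those medians were -0.47 and -0.53. Hrc (3.685 kb) was above its medians of 1.55 and 1.36, and Pln (8.321 kb) was below its medians of 0.68 in both libraries.

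**Figure D4:**
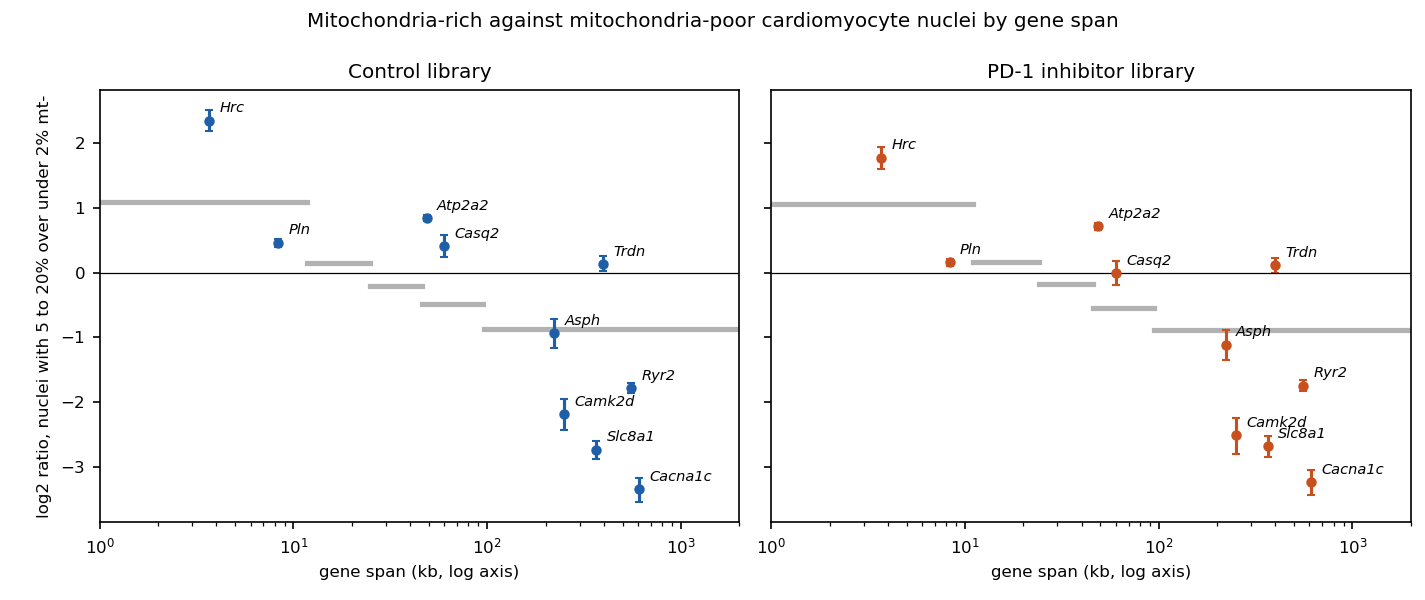
Log2 ratio of each calcium handling gene between cardiomyocyte nuclei with 5 to 20% and those with under 2% mitochondrial UMIs (vertical axis) against the span of the gene in kb (log axis), in Control (left) and PD-1 inhibitor (right), with exact 95% intervals. Grey bars give the median of all tested genes in each of 5 groups of span; Trdn, at 396.156 kb, lies near 0 while Cacna1c, Slc8a1, Camk2d and Ryr2 lie between -3.34 and -1.74.

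Between the libraries, the exchanger and the surface channel were lower in PD-1 inhibitor cardiomyocytes. Of the 10 members, Slc8a1 and Cacna1c were at least 1.5-fold lower and 0 were at least 1.5-fold higher; among 9175 genes tested, 7.51% were that much lower and 8.48% that much higher. Slc8a1 stood at 3616 CPM in Control and 1890 CPM in PD-1 inhibitor, a log2 ratio of -0.94 (-0.99 to -0.88), and only 1.48% of the genes tested had a lower ratio. Cacna1c stood at 2694 and 1682 CPM, a log2 ratio of -0.68 (-0.74 to -0.62). Ryr2, just inside the 1.5-fold mark, stood at 6695 and 4464 CPM, a log2 ratio of -0.58 (-0.62 to -0.55).

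The remaining members differed less. Camk2d had a log2 ratio of -0.51 (-0.62 to -0.41) and Trdn of -0.13 (-0.21 to -0.05). Atp2a2 (0.01, -0.02 to 0.05), Casq2 (0.03, -0.09 to 0.14) and Asph (-0.09, -0.22 to 0.04) had intervals that included 0. Pln at 0.22 (0.18 to 0.25) and Hrc at 0.35 (0.24 to 0.45) were higher in PD-1 inhibitor. The median of the members was -0.11, beside 0.00 over all genes tested.

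These values move with the mix of nuclei, since the PD-1 inhibitor library held a larger share of mitochondria-rich cardiomyocytes. Within nuclei under 2% mt- UMIs, Slc8a1 stood at 4886 CPM in Control and 3054 CPM in PD-1 inhibitor, a log2 ratio of -0.68 (-0.74 to -0.62). Within nuclei of 5 to 20% it stood at 736 and 478 CPM, a log2 ratio of -0.62 (-0.82 to -0.42). Slc8a1 was the 1 member at least 1.5-fold lower in each of these classes, where 7.12% and 8.47% of the genes tested were. Cacna1c had -0.43 and -0.32 within the classes, Ryr2 -0.42 and -0.39, Camk2d -0.24 and -0.57, and Trdn -0.12 and -0.15. Atp2a2 had -0.03 and -0.16, Asph 0.09 and -0.09, and Casq2 0.17 and -0.24. Hrc and Pln, which were higher in PD-1 inhibitor among all cardiomyocytes, had 0.46 (0.26 to 0.66) and 0.30 (0.25 to 0.35) in the poor class but -0.11 (-0.24 to 0.02) and -0.00 (-0.06 to 0.06) in the rich class.

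**Figure D5:**
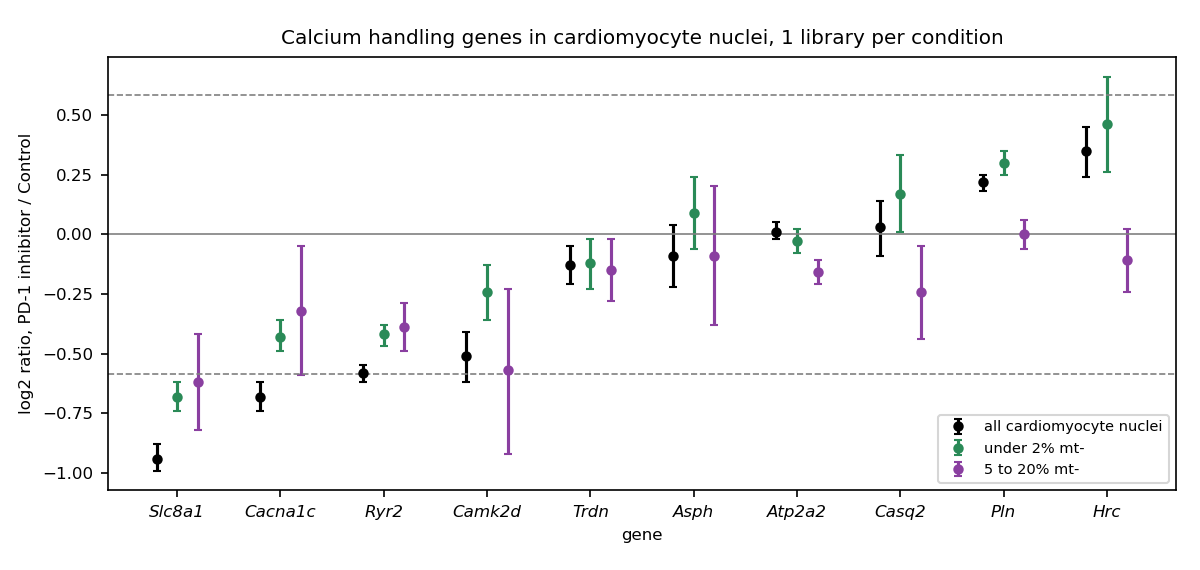
Log2 ratio of each calcium handling gene, PD-1 inhibitor over Control, in all cardiomyocyte nuclei (black), in those under 2% (green) and in those with 5 to 20% mitochondrial UMIs (purple), with exact 95% intervals for counting error. Dashed lines mark 1.5-fold; Slc8a1 lies below the lower line in all 3 sets, at -0.94, -0.68 and -0.62.

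The mix also differed inside the poor class, where 492 of 719 nuclei in Control but 148 of 504 in PD-1 inhibitor had under 0.5% mt- UMIs. Across the 6 finer bins, Slc8a1 was lower in PD-1 inhibitor in 6 of 6, with log2 ratios between -1.04 and -0.42, and passed 1.5-fold in 4. Ryr2 was lower in 5 of 6 (-0.53 to 0.05) and Cacna1c in 6 of 6 (-0.72 to -0.03), and Pln was above 0 in 6 of 6 (0.01 to 0.39). With the same mix of the 6 bins given to both libraries, the log2 ratio was -0.51 for Slc8a1, -0.29 for Ryr2, -0.25 for Cacna1c and 0.02 for Hrc, and 0 of the 10 members passed 1.5-fold in either direction. The members had a median of -0.11 in this setting, beside -0.02 over all genes. The share of all genes past 1.5-fold is not given for it, so the count of 0 has no background. This setting was added after seeing the data.

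Gene length moved with these ratios as well. Across all cardiomyocytes the Spearman rho of span with the log2 ratio was -0.89 over the 10 members and -0.41 over all genes tested, and the median ratio ran from 0.28 in the shortest to -0.26 in the longest of the 5 groups of span. Genes of the span of Slc8a1 had a median of -0.35, those of Ryr2 -0.41 and those of Cacna1c -0.43. All 3 members lay below these medians, Slc8a1 farthest. Trdn (-0.13) again lay above genes of its span (-0.37).

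Outside cardiomyocytes, Slc8a1 was also lower in PD-1 inhibitor in fibroblasts and macrophages, where its calls beyond carry-over depended on the reference. In fibroblasts it stood at 643 and 466 CPM, a log2 ratio of -0.47 (-0.57 to -0.36), and in macrophages at 1026 and 831 CPM, a log2 ratio of -0.30 (-0.43 to -0.18); the medians over all genes tested in these types were 0.00 and -0.03. With all cardiomyocyte nuclei as the reference, carry-over would account for 576 of 1897 UMIs in Control and 229 of 1142 in PD-1 inhibitor fibroblasts. With nuclei under 2% mt- UMIs as the reference, the fibroblast UMIs were 2.03 and 2.55 times the expected number. In types where Slc8a1 did not pass the mark, its log2 ratio ran from -1.31 (-2.25 to -0.50) in T cells to 0.03 (-0.18 to 0.25) in mesothelial nuclei. In endothelial nuclei it was -0.44 (-0.62 to -0.27). Ryr2, not called beyond carry-over in these types, ran from -0.79 in T cells to 0.48 in smooth muscle. It was -0.66 in fibroblasts, -0.62 in macrophages and -0.30 in endothelial nuclei. The part of carry-over and of gene span in these differences was not tested. In smooth muscle, with 103 and 55 nuclei, the intervals of 1581 CPM (1382 to 1801) and 1390 CPM (1152 to 1664) overlapped. Cacna1c had a log2 ratio of 0.11 (-0.32 to 0.54) in smooth muscle and of -0.45 (-0.68 to -0.22) in pericytes, where its call beyond carry-over depended on the reference. Casq2 in pericytes was higher in PD-1 inhibitor, at 0.43 (0.11 to 0.75). Camk2d in B cells stood at 1186 CPM in Control and 574 CPM in PD-1 inhibitor, a log2 ratio of -1.03 (-1.54 to -0.58), with 175 and 80 nuclei behind these values. Among the other types with at least 50 UMIs, Camk2d ran from -1.04 (-1.71 to -0.44) in T cells to 0.10 (-0.21 to 0.42) in mesothelial nuclei. It was -0.32 (-0.45 to -0.19) in endothelial and -0.33 (-0.48 to -0.18) in fibroblast nuclei.

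A small cluster with atrial markers held 41 Control and 42 PD-1 inhibitor nuclei. Its median share of mt- UMIs was 3.12% in Control and 5.60% in PD-1 inhibitor, against 0.834% and 2.93% in the other cardiomyocytes, and the part of this in the values below was not tested. Pln, which is known to be lower in atrial than in ventricular muscle, stood at 2041 CPM against 5254 CPM in the other cardiomyocytes of Control, a log2 ratio of -1.36 (-1.64 to -1.10), and at 2775 against 6130 CPM in PD-1 inhibitor, a log2 ratio of -1.14 (-1.35 to -0.94). Its target Atp2a2 did not share this difference, with log2 ratios of 0.13 (-0.02 to 0.26) and 0.11 (-0.02 to 0.23). Cacna1c was lower as well, at -0.81 in Control and -2.11 in PD-1 inhibitor, and so was Asph, at -0.64 and -0.77. Ryr2 lay on opposite sides of 0, at 0.19 (0.05 to 0.33) in Control and -0.24 (-0.42 to -0.06) in PD-1 inhibitor. The log2 ratios were -1.03 and -0.53 for Camk2d, -0.65 and -0.08 for Casq2, -0.21 and -0.52 for Slc8a1, -0.21 and -0.04 for Trdn, and -0.19 and -0.33 for Hrc. At least 1.5-fold lower were 5 members in Control and 3 in PD-1 inhibitor, where 28.4% and 26.6% of all genes tested were. Without the atrial-like nuclei, the PD-1 inhibitor ratios of the members over all cardiomyocytes still ran from -0.92 to 0.35.

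A wider list of 60 genes of calcium handling and its regulation was set beside the members. Of these, 39 had at least 200 UMIs in cardiomyocytes, and 15 were highest in cardiomyocytes in both libraries. For mitochondria-rich against mitochondria-poor nuclei, 45 genes in Control and 41 in PD-1 inhibitor passed the minimum of 50 UMIs, and 11 were at least 1.5-fold higher and 15 at least 1.5-fold lower in both libraries. In Control 16 of the 45 were that much higher and 18 that much lower, and in PD-1 inhibitor 13 and 17 of the 41. Per library, 30.4% and 31.3% of all genes tested were that much higher and 39.0% and 39.1% that much lower. The share of all genes past the fold in both libraries is not given here. Among the highest were Sln, which encodes the SERCA inhibitor sarcolipin of atrial muscle (log2 ratios of 3.10 and 4.72), and Calm3, which encodes calmodulin (2.79 and 3.02). Most Sln UMIs came from the atrial-like nuclei, of which the rich class held 12 in Control and 22 in PD-1 inhibitor. The poor class held 19 and 13 of them. The lowest were the cAMP phosphodiesterase genes Pde4d (-3.29 and -3.50) and Pde4b (-2.79 and -3.19) and the L-type channel subunit Cacnb2 (-2.71 and -3.28), which thus lay on the same side as its pore gene Cacna1c. Pde4d, Pde4b and Cacnb2 span 1504, 520 and 385 kb, whereas Sln and Calm3 span 4.40 and 8.74 kb. The part of gene length in these ratios was not tested. By role, 5 of the 7 tested genes of beta-adrenergic and cAMP signalling were at least 1.5-fold lower in each library. Of the 5 tested regulators of SERCA, 3 were that much higher in each library, and 2 were so in both. The counts in each library are to be read against the per-library shares.

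In PD-1 inhibitor against Control, 48 of the 60 genes had enough UMIs, of which 3 were at least 1.5-fold higher and 4 at least 1.5-fold lower, with a median log2 ratio of -0.04. Of all genes tested, 8.48% were that much higher and 7.51% that much lower. The lowest were Akap6 (-0.74), an anchor of kinase and phosphodiesterase at the nuclear envelope and junction, Pde4b (-0.73), Pde3a (-0.64), Cacnb2 (-0.59) and Jph2 (-0.48). In the poor class alone these were -0.57, -0.46, -0.60, -0.29 and -0.47. In the rich class they were -0.47, -0.85, -0.41, -0.85 and -0.22 (-0.54 to 0.10). These genes span 456, 520, 258, 385 and 61.8 kb, and the part of gene length in their ratios was not tested. Among the highest were Sln (1.44), Calm3 (0.66), Smdt1 (0.52), a subunit of the mitochondrial uniporter, and Lrrc10 (0.50). In the poor and the rich class these were -0.11 and 1.51 for Sln, 0.24 and 0.47 for Calm3, 0.67 and -0.08 for Smdt1, and 0.56 and 1.00 for Lrrc10. Sln came mostly from the atrial-like nuclei, with 188 of its 222 UMIs in Control and 441 of 495 in PD-1 inhibitor.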

How the data were processed

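The authors prepared single-nucleus libraries with the GEXSCOPE kit and deposited raw UMI counts, which are whole numbers for every gene in every nucleus, without scaling. The submitters' processing notes name the builds GRCm38 and mm10; the aligner, the counter and its strand setting were not given in the sources used here. Groups were taken from the labels.

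Barcodes needed 200 genes or more and no more than 20% mt- UMIs, and doublets called per library with Scrublet in scanpy 1.11.5 were removed (592 and 308, that is 5.85% and 3.87%). No barcode had fewer than 200 genes, and 83 and 15 had over 20% mt- UMIs. Counts were scaled to 10000 per nucleus and logged, and 2000 variable genes without the members and the wider calcium list gave 30 principal components, 15 neighbours and Leiden clusters at resolution 1 (seed 0). A cluster was named from at least 4 detected markers of a type. It was left unnamed where cell cycle genes were found in 50% of the nuclei or more. The same held where its leading genes held more markers of another type, or where depth was low and no marker was among them. It was also left unnamed where 50% or more of the markers of another type were detected, except between pericytes and smooth muscle. The limits of 4 markers and of 50% were set after the clusters were seen.

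UMIs were summed per cell type, class and library. Levels were divided by all UMIs except those of mt- genes, so that the class boundary does not enter the total. Log2 ratios had 0.5 UMI added and exact conditional binomial intervals, sums had exact Poisson intervals and shares exact Clopper-Pearson intervals, all at 95% and for counting error only. A count of 0 was given with the level that 3 counts would make. With 1 library per condition there was no test, and a gene was described as higher or lower by at least 1.5-fold. Genes with at least 50 UMIs in both groups together were compared. Spans and positions came from GENCODE on GRCm38, where 32522 of 32589 gene IDs matched. The ratio script was checked on simulated counts.

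The members, the lists and the tests were chosen with earlier results of these data known. All 10 members are named in the comparisons of cell types, of the mitochondrial classes, of the atrial-like nuclei and of the libraries in cardiomyocytes; in other cell types and in the finer bins only some are. From the wider list, the 5 highest and 5 lowest ratios of PD-1 inhibitor over Control and the 3 highest and 3 lowest ratios of mitochondria-rich over mitochondria-poor nuclei (mean of both libraries) are named, among genes with at least 200 UMIs in cardiomyocytes; 1 gene that this rule selects is not reported here. For each member, the 2 genes most like it are named. Alternatives covered the filters, doublets, clustering, total, centring, weighting of nuclei, thinning, depth and class limits.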

Additional observations from a re-analysis of the deposited data

Results flagged for a closer look

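Casq2 differed in direction between the classes of cardiomyocyte nuclei. In nuclei under 2% mt- UMIs its log2 ratio of PD-1 inhibitor over Control was 0.17 (0.01 to 0.33), from 494 and 558 CPM, and in nuclei with 5 to 20% it was -0.24 (-0.44 to -0.05), from 657 and 555 CPM. It stood out because the counting intervals of both ratios lie on opposite sides of 0. In the finer bins of the poor class, the Casq2 ratio was 0.06 (-0.17 to 0.28) under 0.5%, 0.40 (0.08 to 0.74) at 0.5 to 1% and 0.44 (-0.21 to 1.20) at 1 to 2%. In those of the rich class it was 0.02 (-0.27 to 0.31) at 5 to 10% and -0.50 (-0.79 to -0.22) at 10 to 20%. With the same mix of 6 bins in both libraries it was 0.00. With 1 library per condition the difference between the classes was not tested.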

How the results depend on the processing

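The 8 alternatives for levels left 9 members highest in cardiomyocytes and 5 members beyond carry-over in another type, although no cluster was named smooth muscle at resolution 0.5 or with the calcium genes among the variable genes. For mitochondria-rich against mitochondria-poor nuclei, 14 alternatives were run per library. Centring on the median of all genes moved the Control median of the members to -0.20 and the number at least 1.5-fold higher to 4, and using all UMIs as the total moved that number to 1 in PD-1 inhibitor. Among ratios whose interval excluded 0, the sign turned for Trdn in Control with all UMIs as the total (-0.04) and in thinned nuclei (-0.00), and for Pln in PD-1 inhibitor in nuclei of 1000 to 3000 UMIs (-0.01). Among those whose interval included 0, Trdn in PD-1 inhibitor turned to -0.04 with all UMIs as the total, and Casq2 in PD-1 inhibitor ran from -0.20 to 0.17. For PD-1 inhibitor against Control, 1 member was at least 1.5-fold lower with at most 5% mt- UMIs, in nuclei under 2%, in nuclei of 5 to 20% and with the same mix of the mt- classes (added after seeing the data), and 0 were with the same mix of 6 mt- bins (also added). Among these settings, the share of all genes past the fold is given above only for nuclei under 2% and of 5 to 20%. Hrc turned to -0.11 and Pln to -0.00 in nuclei of 5 to 20%, and Atp2a2, Casq2 and Asph, whose intervals included 0, had values on both sides of 0. Each of these settings changes the nuclei, their weights or the total, and beyond that the cause was not tested. Slc8a1 stayed at -0.51 or lower, Ryr2 from -0.64 to -0.29 and Cacna1c from -0.71 to -0.25 over all settings. No paired analysis was possible because each condition has 1 library, and for the same reason no library could be left out. Depth limits Camk2d, Asph and Casq2 in the rich class and every value in adipocytes, glia and atrial-like nuclei, where few nuclei were counted.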
